A study of Mus musculus with 16 samples.

Results

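The comparison described here set all 8 Smchd1 mutant embryos of the series against all 8 wildtype embryos, regardless of sex, and asked which autosomal transcripts differed with the loss of Smchd1 in XX and XY embryos alike. Its members are the 16 arrays of the series, 16 of 16. MommeD1 embryos were homozygous for MommeD1, a nonsense allele of Smchd1 that arose in a chemical mutagenesis screen, and Wildtype embryos carried no such allele. All were whole FVB/n embryos at embryonic day 9.5 from natural matings of heterozygotes, and each genotype held 4 females and 4 males. The study names no transgene or Cre for these embryos. The screen that gave the allele read a GFP transgene array, and whether these embryos carried it is not stated. RNA of each embryo was hybridised to 1 Illumina mouse array. The arrays lay on 2 chips, each with 2 arrays of every genotype and sex, so genotype, sex and chip were balanced. The allele is constitutive, so every tissue of a MommeD1 embryo, the extraembryonic ones included, lacked the normal gene.

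Smchd1 is a chromatin-associated member of the SMC (structural maintenance of chromosomes) superfamily, related in its hinge domain to the cohesin and condensin subunits. It is needed for the maintenance of X inactivation and for DNA methylation of many CpG islands on the inactive X chromosome. XX embryos without it fail around midgestation, whereas some XY embryos can survive. Because XY embryos have no inactive X chromosome, an effect present in both sexes can be described apart from X inactivation failure. Among the autosomal genes whose expression from 1 of the 2 alleles is well known are the imprinted genes, expressed according to parent of origin, and the clustered protocadherins, expressed in random combinations by single neurons.

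The promoters of 4 autosomal genes that rose in both sexes are shown first, because 2 of them lie in the same imprinted cluster and the other 2 are near copies. Each window runs from 250 bases before to 50 bases after the transcription start, read 5′ to 3′ on the strand of the gene, from RefSeq in build GRCm38.p6. Capitals mark each CG dinucleotide (CpG), the site of DNA methylation, which reads the same on both strands. Mkrn3 is at chr7:62420104-62420403 on the minus strand, Ndn at chr7:62348027-62348326 on the plus strand, 4930555G01Rik at chr14:5050379-5050678 on the plus strand and Gm5797 at chr14:7332346-7332645 on the minus strand.
Mkrn3: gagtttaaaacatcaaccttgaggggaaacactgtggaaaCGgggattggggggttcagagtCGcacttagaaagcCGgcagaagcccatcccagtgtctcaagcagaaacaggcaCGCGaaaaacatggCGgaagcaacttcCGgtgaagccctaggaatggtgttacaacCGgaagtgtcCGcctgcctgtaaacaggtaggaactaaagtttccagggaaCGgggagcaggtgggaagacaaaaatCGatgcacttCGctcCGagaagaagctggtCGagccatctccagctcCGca
Ndn: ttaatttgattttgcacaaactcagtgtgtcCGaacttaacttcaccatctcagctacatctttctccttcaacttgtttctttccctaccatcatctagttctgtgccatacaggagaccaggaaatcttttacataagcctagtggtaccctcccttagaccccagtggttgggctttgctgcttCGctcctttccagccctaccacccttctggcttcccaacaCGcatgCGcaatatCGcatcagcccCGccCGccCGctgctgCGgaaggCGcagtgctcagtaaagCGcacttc
4930555G01Rik: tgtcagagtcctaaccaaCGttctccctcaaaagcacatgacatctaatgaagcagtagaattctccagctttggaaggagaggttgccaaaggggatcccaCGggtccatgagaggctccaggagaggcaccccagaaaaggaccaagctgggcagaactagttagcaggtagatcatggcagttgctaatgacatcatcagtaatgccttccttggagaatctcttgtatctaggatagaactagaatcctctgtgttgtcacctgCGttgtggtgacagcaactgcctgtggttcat
Gm5797: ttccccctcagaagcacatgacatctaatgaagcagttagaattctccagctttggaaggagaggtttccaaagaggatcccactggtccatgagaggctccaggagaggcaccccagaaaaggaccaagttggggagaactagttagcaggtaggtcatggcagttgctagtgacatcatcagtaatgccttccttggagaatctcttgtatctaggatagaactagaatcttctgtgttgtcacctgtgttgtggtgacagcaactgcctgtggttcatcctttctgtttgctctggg
The Mkrn3 window held 15 CpGs and the Ndn window 11, against a median of 22 among the promoter windows of the 5526 autosomal genes tested that had one. At most as many CpGs as in the Mkrn3 window were found in 26.6% of those windows, and at most as many as in the Ndn window in 15.8%. The 4930555G01Rik window held 3 CpGs and the Gm5797 window 0, and these 2 windows shared an identical run of 60 bases. The array probes of this pair are 50 bases long and shared a run of 31 bases, so their readings are not independent of each other.

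The deposited values were log2 signals with the same lowest (5.26) and highest (14.97) value on every array and a median of 6.34. Of 25697 probes, 9785 exceeded 7 on at least 4 arrays, and they represented 6999 genes, of which 6756 were autosomal. Markers of several embryonic tissues were measured, with 17 of 29 neural progenitor, 14 of 25 cardiac and 13 of 25 primitive erythroid markers passing the filter. The 15 of 31 yolk sac endoderm markers that passed varied greatly between embryos: their mean log2 level ran from 7.40 to 9.88 (median 7.90) in MommeD1 embryos and from 7.43 to 9.08 (median 7.98) in Wildtype embryos. The arrays MommeD1 female 2, MommeD1 male 1 and Wildtype male 3 stood highest, by 1.73, 0.95 and 0.93 above the mean of all arrays, and counts are given without these 3 below. By limma, 0 of the 15 markers passed the threshold for a difference between the genotypes. In whole embryos, fewer cells of a type and less RNA per cell cannot be told apart.

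Smchd1 itself, on chromosome 17, checked the labels. Its log2 level was 7.34 to 7.60 (median 7.49) in MommeD1 embryos and 9.72 to 9.98 (median 9.86) in Wildtype embryos, so every MommeD1 array lay below every Wildtype array. The difference, MommeD1 minus Wildtype, was -2.38 ± 0.05 on the log2 scale (SE, n = 8 against 8), a 5.21-fold lower level (limma, adjusted p = 5.12e-18). A dimmer probe of the gene differed by -0.93 ± 0.08, and one that did not pass the filter by 0.01.

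Loss of Smchd1 was accompanied by many small differences among autosomal genes. Past an adjusted p of 0.05 in limma, with genotype, sex and chip as terms, were 812 of 6756 autosomal genes (12%), of which 384 were higher (5.68%) and 428 lower (6.34%) in MommeD1 embryos. At an unadjusted p of 0.05 the number was 1909. Over all 6999 genes 12.5% passed, 6.27% higher and 6.23% lower. Each of the 812 had an effect of the same sign in females as in males, taken from a second fit with the 4 groups and chip as terms. The pooled difference is the average of the female and male effects, so genes chosen by it tend to share a sign. The shared sign is therefore no separate evidence of agreement between the sexes. Among X-linked genes, 55 of 236 were higher and 8 were lower. Without the 3 arrays highest in yolk sac markers, 590 autosomal genes passed, 505 of them among the 812.

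An effect was called common to both sexes where the pooled difference passed the threshold, each sex alone reached an unadjusted p below 0.05 in the same direction, and the difference between the effects of the sexes did not. By this rule 379 autosomal genes (5.61%) had a common effect, 175 higher (2.59%) and 204 lower (3.02%). The effects by sex chose these genes and are given below as description. Of the 433 genes past the threshold that were not common, 354 had a male p of 0.05 or above, 66 a female p of 0.05 or above, and 93 a difference between the sexes at an unadjusted p below 0.05, and a gene could fall under several of these. Pooling carried much of the result, since 209 of the 379 common genes were past the adjusted threshold in neither sex alone. By limma, 627 autosomal genes passed the adjusted threshold in females alone and 14 in males alone. For most common genes the male effect therefore rests on an unadjusted p below 0.05. Mrpl22, just inside the threshold (0.13 ± 0.04, adjusted p = 0.0499), and Poc1b, just outside it (0.15 ± 0.05, adjusted p = 0.0501), show how near genes on both sides lay. Without the 3 arrays high in yolk sac markers the count was 355, with 247 shared.

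Most common effects were small. The median size was 0.20 on the log2 scale, 36 genes exceeded 0.3 (23 higher, 13 lower) and 8 exceeded 0.5 (6 higher, 2 lower). In 60 of the 379 genes every MommeD1 array lay on one side of every Wildtype array, 36 of them higher and 24 lower, against 70 of all 6756 autosomal genes (1.04%). The 379 genes were chosen on these same arrays, so a raised share among them follows from the choice and adds no evidence. In the plot of the genotype effect by sex the common genes lie along the diagonal, where the rule for a common effect places them.

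**Figure D1:**
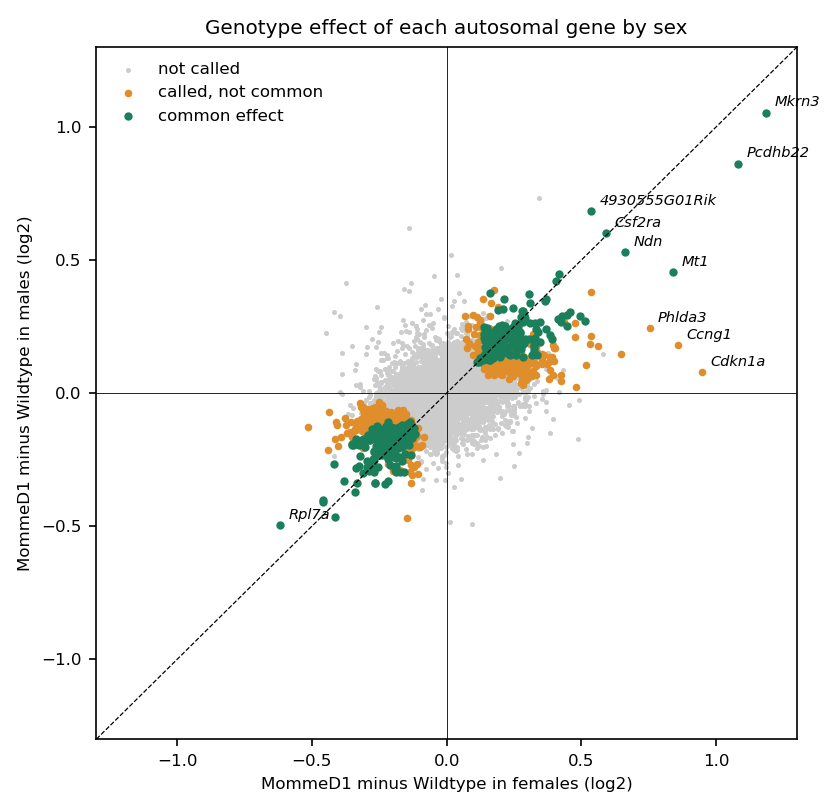
Each point is 1 of the autosomal genes tested, with the log2 difference MommeD1 minus Wildtype in females on the x axis and in males on the y axis; the dashed line marks equal effects, and Smchd1 (-2.43 and -2.34) lies off the plot. Green points are the 379 genes with a common effect, orange points the other genes past the threshold, and Mkrn3 and Pcdhb22 stand farthest from the origin among the green points shown.

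The imprinted Snrpn cluster on chromosome 7 held the named autosomal gene with the greatest rise. Mkrn3, a makorin RING finger protein gene expressed from the paternal allele, had a log2 level of 9.62 to 9.999 (median 9.91) in MommeD1 embryos and 8.55 to 8.86 (median 8.73) in Wildtype embryos. The groups were separated by more than the range within either. The difference was 1.12 ± 0.07 (SE, n = 8 against 8), a 2.17-fold higher level (adjusted p = 1.25e-09), with 1.19 in females and 1.05 in males, and 1.08 within chip 1 and 1.16 within chip 2.

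Ndn, which encodes necdin, a protein of the MAGE family, lies in the same cluster and is likewise expressed from the paternal allele. Its log2 level was 13.09 to 13.34 (median 13.16) in MommeD1 embryos and 12.49 to 12.70 (median 12.59) in Wildtype embryos, again without overlap. The rise was 0.59 ± 0.04, or 1.51-fold (adjusted p = 6.34e-09). Females had 0.66 and males 0.53, and the interval of the female minus male difference ran from -0.02 to 0.28.

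The rise did not extend to every measured gene of the cluster. Snrpn, a small ribonucleoprotein gene at the imprinting centre, had a log2 level of 11.86 to 12.20 (median 12.005) in MommeD1 embryos and 11.94 to 12.11 (median 11.99) in Wildtype embryos. Its difference was 0.03 ± 0.05 (adjusted p = 0.735), with a 95% interval of -0.07 to 0.13 that lies below the rises of Mkrn3 and Ndn. Ube3a, a ubiquitin ligase gene expressed from the maternal allele in neurons, differed by -0.09 ± 0.08 (adjusted p = 0.487). A dimmer kept probe of Ube3a, near the filter level of 7, differed by -0.29 ± 0.05, with -0.27 in females and -0.31 in males. Its adjusted p was 0.00179 by limma when every kept probe was tested. That probe had 6.77 to 7.03 in MommeD1 embryos and 7.07 to 7.25 in Wildtype embryos. When all kept probes of Ube3a were averaged the difference was -0.19 (adjusted p = 0.0127), so its call depends on the probe. Thus 2 of 4 tested genes (50%) rose, against 12% called and 5.68% higher among all autosomal genes. These 2, Mkrn3 and Ndn, mark this comparison, so their share adds no evidence. Peg12, Atp10a and Magel2, which lies between Ndn and Mkrn3, were too dim to be tested. Of the 22 other imprinted genes tested, 1 rose and 2 fell (13.6%), with a median difference of -0.0032 against -0.01 for all autosomal genes. The cholesterol synthesis gene Dhcr7 rose by 0.18 ± 0.04 (adjusted p = 0.00751), and the nucleosome assembly gene Nap1l4, with a difference of -0.20 ± 0.04 (adjusted p = 0.00504), fell. Igf2r, a receptor that clears insulin-like growth factor 2, differed by -0.14 ± 0.05 (adjusted p = 0.0444) and lost its call with any of 12 arrays left out (adjusted p 0.0578 to 0.0877).

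The clustered protocadherins on chromosome 18 could scarcely be read in whole embryos, since 1 of 50 passed the filter. That gene, Pcdhb22, an adhesion protein gene of the beta cluster, had a log2 level of 7.06 to 7.68 (median 7.48) in MommeD1 embryos and 6.32 to 6.59 (median 6.48) in Wildtype embryos. No Wildtype array reached the filter level of 7, so the gene was tested only through its level in MommeD1 embryos. The difference was 0.97 ± 0.07, at least 1.96-fold (adjusted p = 8.64e-08), with 1.08 in females and 0.86 in males. Members of the beta cluster resemble each other in sequence, and the reading is uncertain to that extent.

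**Figure D2:**
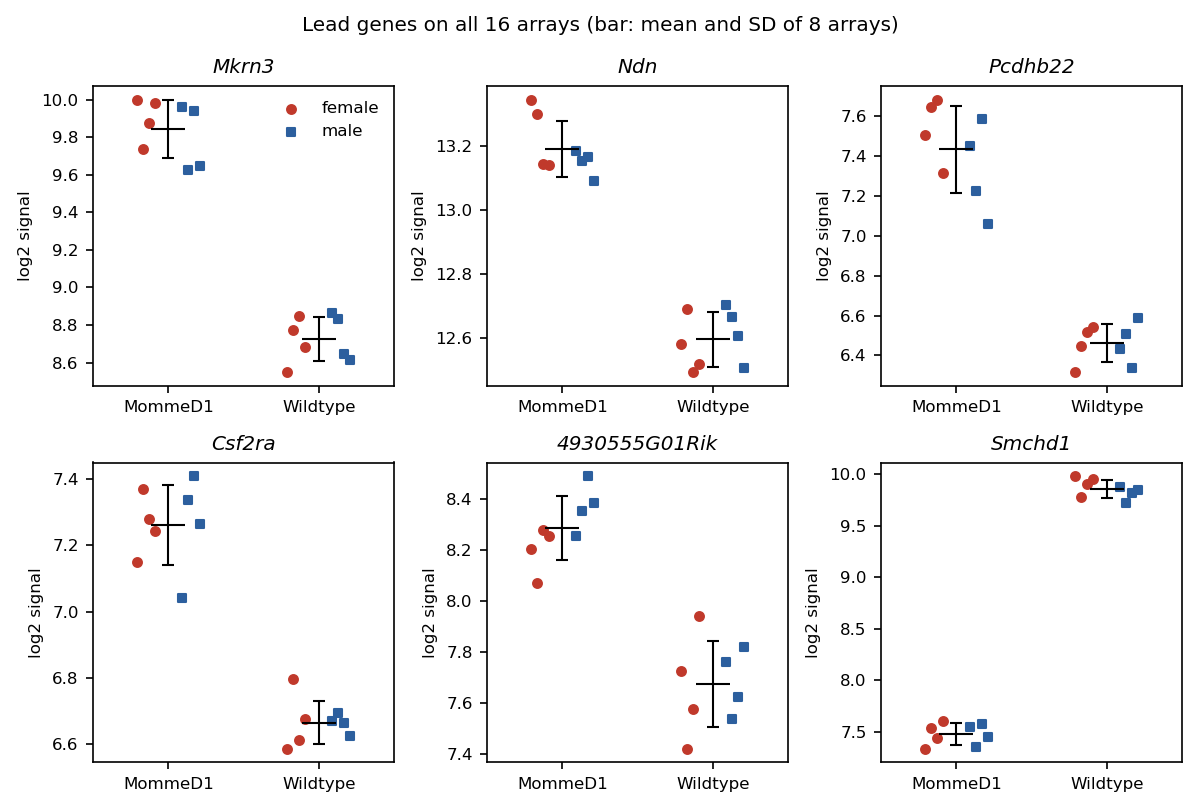
The log2 signal of 6 genes in MommeD1 and Wildtype embryos, with 1 point per array (circles for females, squares for males) and a bar at the mean with the SD of 8 arrays. In each panel no MommeD1 array overlaps a Wildtype array: the first 5 genes are higher in MommeD1 embryos and Smchd1 is lower.

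Csf2ra, the alpha chain of the receptor for granulocyte-macrophage colony-stimulating factor, lies near the end of chromosome 19. Its log2 level was 7.04 to 7.41 (median 7.27) in MommeD1 embryos and 6.59 to 6.80 (median 6.67) in Wildtype embryos. Every Wildtype array was under the filter level of 7, so Csf2ra too was tested only through its level in MommeD1 embryos. The rise was 0.60 ± 0.05, at least 1.51-fold (adjusted p = 4.45e-07), and was 0.59 in females and 0.60 in males. Its promoter window held 23 CpGs.

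4930555G01Rik and Gm5797, the pair of near copies on chromosome 14 whose promoters are printed above, rose together. The log2 level of 4930555G01Rik was 8.07 to 8.49 (median 8.27) in MommeD1 embryos and 7.42 to 7.94 (median 7.67) in Wildtype embryos, and the difference was 0.61 ± 0.06 (1.53-fold, adjusted p = 3.78e-06). For Gm5797 the level was 8.03 to 8.37 (median 8.22) in MommeD1 embryos and 7.44 to 7.98 (median 7.84) in Wildtype embryos, and the difference was 0.43 ± 0.07 (1.35-fold, adjusted p = 0.00139). Neither gene showed overlap between the genotypes. Gm5796, next to 4930555G01Rik in the order of tested genes and named after its values were seen, rose by 0.20 ± 0.05 (adjusted p = 0.0195; 0.108 without the 3 arrays high in yolk sac markers). The probes of such copies can read each other's transcripts, so these are not separate counts of affected genes.

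Mt1, which encodes the metal-binding protein metallothionein 1, rose with a wide spread. Its log2 level was 11.34 to 12.69 (median 12.20) in MommeD1 embryos and 11.26 to 11.67 (median 11.53) in Wildtype embryos, and the groups overlapped. The SD was 0.47 in MommeD1 embryos and 0.13 in Wildtype embryos. The difference was 0.65 ± 0.13 (adjusted p = 0.00598), 0.84 in females and 0.45 in males. The other genes tested from the list of metallothioneins and zinc transport, Slc30a1 and Slc39a10, had differences of 0.19 ± 0.09 and -0.12 ± 0.07 that did not pass the threshold.

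Rises of 0.37 to 0.41 made up the rest of the 12 greatest. These were Gstk1, a glutathione transferase (0.41 ± 0.08), Tle5, a Groucho-related corepressor (0.39 ± 0.07), Hes5, a repressor induced by Notch signalling in neural progenitors (0.39 ± 0.07), Zcchc7, a zinc knuckle protein (0.38 ± 0.05), and Gabarap, an autophagy protein (0.37 ± 0.05). Adjusted p-values ran from 0.0003 for Zcchc7 to 0.00437 for Gstk1. Hes5 had 9.48 to 9.95 (median 9.71) in MommeD1 embryos and 9.13 to 9.52 (median 9.26) in Wildtype embryos on the log2 scale, with a slight overlap. A second probe of Hes5 differed by 0.40 ± 0.08 and one of Zcchc7 by 0.27 ± 0.05.

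The greatest fall after Smchd1 was that of Rpl7a, a protein of the large ribosomal subunit. Its log2 level was 12.21 to 13.03 (median 12.42) in MommeD1 embryos and 12.98 to 13.12 (median 13.07) in Wildtype embryos. MommeD1 male 1 alone lay within the Wildtype range, and the other MommeD1 arrays were below it. The difference was -0.56 ± 0.07 (adjusted p = 7.63e-05), with -0.42 on the arrays of chip 1 and -0.70 on those of chip 2. Ribosomal protein genes have many processed copies in the genome, and the reading is uncertain to that extent.

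Prtg, Mef2c, Zeb2 and Tek were among the 12 greatest common falls, Smchd1 included. Prtg, an immunoglobulin superfamily receptor of early embryos also called protogenin, had 8.42 to 9.16 (median 8.83) in MommeD1 embryos and 9.12 to 9.41 (median 9.25) in Wildtype embryos on the log2 scale, a difference of -0.43 ± 0.08 (adjusted p = 0.0034). Mef2c, a transcription factor of heart and muscle, had 8.66 to 9.31 (median 8.84) in MommeD1 embryos and 9.14 to 9.30 (median 9.23) in Wildtype embryos, a difference of -0.36 ± 0.07 (adjusted p = 0.00437). Without MommeD1 male 1, which alone stood at 9.31, Mef2c remained past the threshold. A dimmer kept probe of Mef2c differed by -0.19 ± 0.07 and did not pass (adjusted p = 0.0861 when every kept probe was tested), with -0.05 in females and -0.33 in males. Zeb2, a zinc finger repressor active in neural crest, fell by 0.33 on the log2 scale and Tek, the endothelial receptor for angiopoietins, by 0.31.

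Tek had 8.39 to 8.84 (median 8.66) in MommeD1 embryos and 8.86 to 9.15 (median 8.89) in Wildtype embryos on the log2 scale, without overlap (adjusted p = 9.56e-04). The same held for Arhgap32 (-0.43 ± 0.06), for Grip1, a scaffold protein for glutamate receptors (-0.35 ± 0.05), and for Fam117a (-0.34 ± 0.04) and Thap12 (-0.30 ± 0.04). A second kept probe of Grip1 differed by 0.01 ± 0.05, so its fall rests on 1 of its probes. Zfp871, a zinc finger gene, differed by -0.30 ± 0.08. Prss35, a secreted protease-like protein, differed by -0.44 ± 0.12 (adjusted p = 0.0257). Its call was lost without MommeD1 female 1 (-0.38, adjusted p = 0.054) and without Wildtype female 2 (-0.39, adjusted p = 0.0547), while the arrays of chip 1 gave -0.79 and those of chip 2 gave -0.09.

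**Figure D3:**
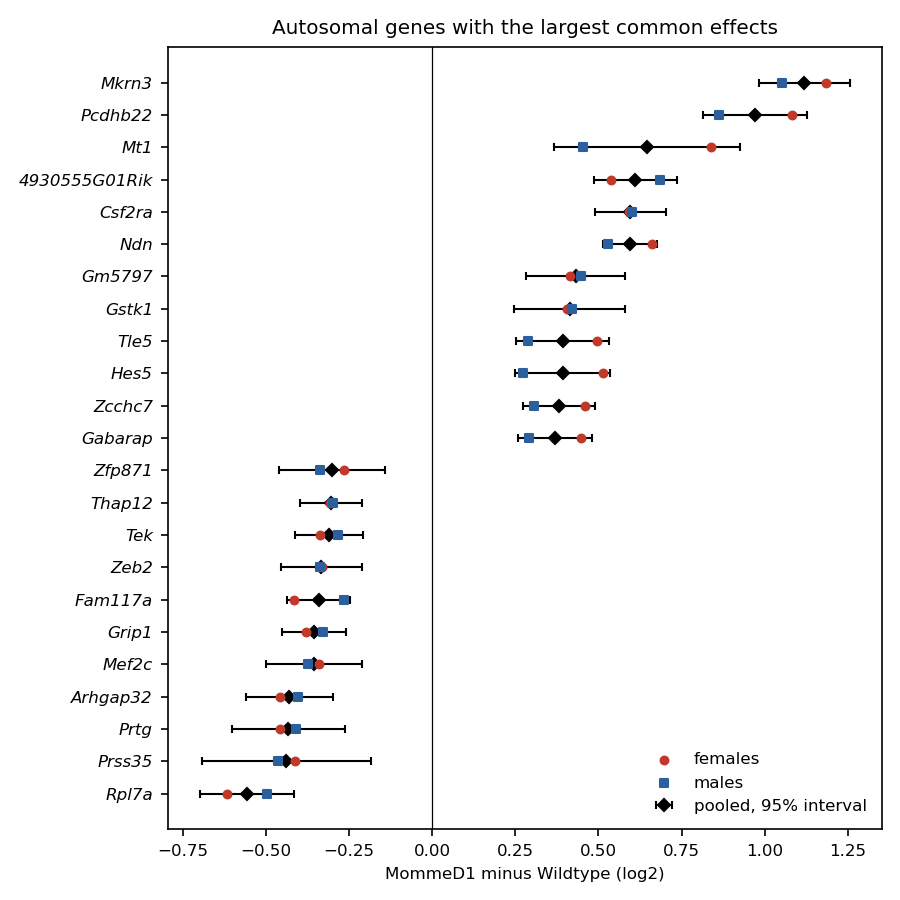
The log2 difference MommeD1 minus Wildtype of the 12 autosomal genes with the greatest common rise and the greatest common falls after Smchd1, with the pooled estimate and its 95% interval (diamonds) and the estimates in females (circles) and males (squares). Mkrn3 at 1.12 and Pcdhb22 at 0.97 stand apart above, and the falls lie between -0.56 and -0.30.

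A probe without a gene in the platform's annotation rose more than any named autosomal gene. Its log2 level was 10.29 to 10.34 in MommeD1 embryos and 8.54 to 8.78 in Wildtype embryos, a difference of 1.65 ± 0.04 (adjusted p = 1.05e-17) that was 1.60 in females and 1.70 in males. The probe reannotation used by the study assigned it to Pisd-ps1, a pseudogene of phosphatidylserine decarboxylase. Of the 559 kept probes without a gene, 73 passed the threshold when every kept probe was tested. In the main fit, with the probe of highest mean for each gene, 875 of 6999 genes passed (12.5%). The share among all kept probes was not counted, so no excess among the probes without a gene can be read from the 73.

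Chromatin factors were examined because Smchd1 belongs among them. Of 24 genes for DNA methylation and heterochromatin factors, 6 fell and 1 rose (29.2%, against the 12% called among all autosomal genes), and the median difference was -0.05 against -0.01 for all. The mean log2 level of the list was 10.17 to 10.22 (median 10.21) in MommeD1 embryos and 10.23 to 10.30 (median 10.26) in Wildtype embryos. Of 27 lists with a level on each array, this one, mitochondrial protein import and the Snrpn cluster had levels that did not overlap between the genotypes. The gap for the methylation and heterochromatin list was narrow, from 10.222 (highest MommeD1) to 10.233 (lowest Wildtype). That for mitochondrial protein import was narrower still, from 10.3 (highest Wildtype) to 10.307 (lowest MommeD1). The Snrpn list holds Mkrn3 and Ndn, which mark this comparison, so its separation adds no evidence. How often other sets of genes separate was not examined. Cbx1, a heterochromatin protein that binds methylated histone H3, had 7.35 to 7.65 (median 7.49) in MommeD1 embryos and 7.59 to 7.87 (median 7.79) in Wildtype embryos, a difference of -0.26 ± 0.04 (adjusted p = 0.00189). Mbd4, a glycosylase that repairs mismatches at CpG sites, differed by -0.27 ± 0.06 (adjusted p = 0.0103).

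The other members that fell were named after their values were seen. They were Morc2a, an ATPase of the silencing machinery (-0.25 ± 0.05), Ezh2, the methyltransferase of Polycomb repressive complex 2 (-0.16 ± 0.04), the deacetylase gene Hdac1 (-0.15 ± 0.04) and Cbx5 (-0.15 ± 0.05). The last of these lost its call with any of 11 arrays left out (adjusted p 0.0598 to 0.0921), and Hdac1 with any of 3 (0.0518 to 0.0628). Ezh2 lost its call without the 3 arrays high in yolk sac markers (adjusted p = 0.0602) and when its kept probes were averaged (-0.04). Ring1, a ubiquitin ligase of Polycomb repressive complex 1, rose by 0.19 ± 0.05 (adjusted p = 0.0196). The list therefore held members moving in both directions.

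Among 17 tested subunits and partners of SMC complexes, 3 fell and 1 rose (23.5%, against 12% of all autosomal genes), with a median difference of -0.07 against -0.01 for all. Lrif1, whose human counterpart binds SMCHD1 protein, had 8.45 to 8.65 (median 8.57) in MommeD1 embryos and 8.16 to 8.56 (median 8.30) in Wildtype embryos on the log2 scale, a rise of 0.23 ± 0.06 (adjusted p = 0.0143). A dimmer probe of Lrif1 differed by 0.28 ± 0.07. The falls were marginal. Nsmce1 (-0.19 ± 0.05) and Smc5 (-0.18 ± 0.06), both of the Smc5/6 complex, and the cohesin regulator Pds5b (-0.16 ± 0.05), named after its values were seen, lost their calls with any of 6, 12 and 12 arrays left out, with adjusted p up to 0.0591, 0.0942 and 0.1.

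Around Smchd1 on chromosome 17, 14 flanking genes were tested, of which 1 rose and 1 fell (14.3%, against 12% of all autosomal genes). Its nearest tested neighbour Ndc80, a kinetochore protein gene, fell by 0.18 on the log2 scale (SE 0.04, adjusted p = 0.0141), and had 9.10 to 9.36 (median 9.21) in MommeD1 embryos and 9.25 to 9.51 (median 9.39) in Wildtype embryos. Lbh had a difference of 0.25 ± 0.08 that lost its call with any of 13 arrays left out (adjusted p 0.05 to 0.0785). The other 12 did not pass the threshold.

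Some mitochondrial transcripts were higher in MommeD1 embryos. Of 19 genes for mitochondrial protein import, 4 rose and 0 fell (21.1%, against 12% of all autosomal genes called and 5.68% higher), with a median difference of 0.04 against -0.01 for all. The mean log2 level of the list was 10.31 to 10.37 (median 10.33) in MommeD1 embryos and 10.24 to 10.30 (median 10.27) in Wildtype embryos. Timm8b, a small chaperone of the intermembrane space, had 12.33 to 12.56 (median 12.39) in MommeD1 embryos and 11.99 to 12.22 (median 12.08) in Wildtype embryos, without overlap, and rose by 0.32 ± 0.04 (adjusted p = 3.12e-05). The study's probe annotation marks this probe as also matching the reverse strand, and a second Timm8b probe differed by 0.14 ± 0.04. Tomm6, of the outer membrane translocase, rose by 0.23 ± 0.05 (adjusted p = 0.00467). Dnajc19 (0.14 ± 0.04) and Timm10b (0.15 ± 0.05), named after their values were seen, each lost the call with any of 12 arrays left out (adjusted p up to 0.089 and 0.086).

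Of 68 genes for the respiratory chain and ATP synthase, 5 rose and 1 fell (8.82%, below the 12% of all autosomal genes), while 57 had a positive difference and the median was 0.05 against -0.01 for all. The mean log2 level was 11.35 to 11.44 (median 11.40) in MommeD1 embryos and 11.31 to 11.38 (median 11.34) in Wildtype embryos, with overlap. Cox6b2 (0.30 ± 0.06, adjusted p = 0.00489) and Cox5a (0.24 ± 0.04, adjusted p = 0.0019), both of cytochrome c oxidase, led the rises, and Atp5o, of ATP synthase, differed by -0.23 ± 0.06 (adjusted p = 0.0154). Cox6c (0.22 ± 0.05) and the complex I genes Ndufa12 (0.16 ± 0.04) and Ndufa8 (0.12 ± 0.04) were named after their values were seen, and Ndufa8 lost its call with any of 13 arrays left out (adjusted p 0.0535 to 0.0866).

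**Figure D4:**
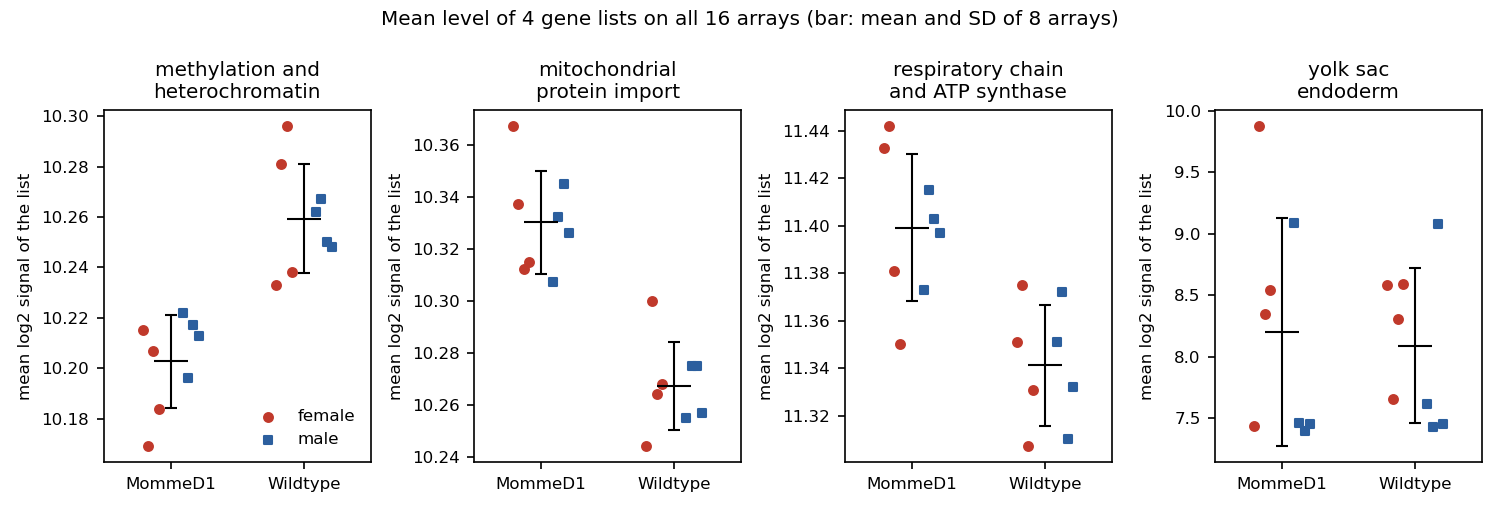
The mean log2 signal of the tested genes of 4 lists in MommeD1 and Wildtype embryos, with 1 point per array (circles for females, squares for males) and a bar at the mean with the SD of 8 arrays. The first 2 lists do not overlap between the genotypes, though by narrow gaps. The respiratory chain list overlaps, and the yolk sac endoderm markers spread from 7.40 to 9.88 within MommeD1 embryos.

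Among 51 cytosolic ribosomal proteins, 2 rose and 2 fell (7.84%, against 12% of all autosomal genes), with a median difference of 0.01. Beside Rpl7a, Rps13 of the small subunit rose by 0.26 ± 0.04 (adjusted p = 0.00144) and Rpl24 differed by -0.20 ± 0.05 (adjusted p = 0.015), while Rps27l (0.19 ± 0.06) lost its call with any of 12 arrays left out (adjusted p 0.053 to 0.0972). The mean log2 level of the list was 13.19 to 13.24 in MommeD1 embryos and 13.18 to 13.25 in Wildtype embryos. Of 6 interferon response genes tested, with a median difference of 0.01, 1 rose (16.7%): Ifitm3, a membrane protein that restricts viruses and has close relatives on chromosome 7, rose by 0.28 ± 0.04 (adjusted p = 4.64e-04) without overlap, at 9.23 to 9.501 (median 9.38) in MommeD1 embryos and 8.94 to 9.18 (median 9.10) in Wildtype embryos.

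The rises among targets of the tumour suppressor p53 did not meet the rule for a common effect. Of 25 tested, 4 rose and 2 fell (24%, against 12% of all autosomal genes), with a median of 0.05 against -0.01 for all. Of these, 0 of the rises and 1 of the falls were common. Cdkn1a, the cell cycle inhibitor p21, had 8.15 to 9.44 (median 8.62) in MommeD1 embryos and 7.97 to 8.30 (median 8.17) in Wildtype embryos on the log2 scale. Its pooled difference of 0.51 ± 0.12 (adjusted p = 0.0108) was made of 0.95 in females and 0.08 in males. The female minus male difference was 0.87 ± 0.13 (adjusted p = 0.00356).

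Ccng1 and Phlda3 also had larger effects in females, with female minus male differences of 0.68 ± 0.13 (adjusted p = 0.019) and 0.51 ± 0.10 (adjusted p = 0.0189). Zmat3, named after its values were seen, had a female minus male difference of 0.50 ± 0.12 (adjusted p = 0.0695). The effect of Ccng1 was 0.86 in females and 0.18 in males. Phlda3 was higher in both sexes, by 0.75 in females and by 0.24 in males. Of the falls, Apaf1, the core of the apoptosome, was common (-0.24 ± 0.04, adjusted p = 0.00285), although a dimmer probe differed by -0.06 ± 0.05, and Mdm2 (-0.14 ± 0.04) lost its call with any of 11 arrays left out (adjusted p 0.0521 to 0.0852). In all, 8 autosomal genes (0.118%, against 0.457% of all genes tested) had a difference between the sexes past the adjusted threshold, and 4 of these were among the 812, 1700029P11Rik being the other one. Effects were larger in females for 614 of the 812 genes and for 247 of the 379 common ones. The same count over all autosomal genes was not made, so these counts cannot be called particular to the called genes. The rule for a common effect also used the effects by sex.

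As lists, the cell type markers had pooled medians of -0.07 to 0.10, against -0.01 for all autosomal genes. By sex, the median of the yolk sac endoderm markers was 0.28 in females and -0.05 in males, and that of the primitive erythroid markers was -0.13 in females and 0.21 in males, differences that were not tested. Endothelial markers were split (18.8% called, against 12% of all autosomal genes): Robo4, a guidance receptor of vessels, rose by 0.35 ± 0.06 (adjusted p = 0.00208) and endoglin (Eng), a coreceptor for transforming growth factor beta, by 0.26 ± 0.06 (adjusted p = 0.015), whereas Tek fell, and 13 of 16 did not pass. Of 14 cardiac markers (14.3% called), Mef2c fell and the atrial myosin light chain Myl7 rose (0.37 ± 0.08, adjusted p = 0.00599), Myl7 by 0.56 in females and 0.18 in males. Among 17 neural progenitor markers, 3 rose (17.6%): Hes5, the proneural gene Neurog2 (0.26 ± 0.07, adjusted p = 0.0214) and Fgf15 (0.25 ± 0.07), which was named after its values were seen and lost its call with any of 7 arrays left out (adjusted p 0.0548 to 0.0655). Neuronal differentiation markers had 0 of 15 past the threshold, with 13 positive and a median of 0.10.

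The neural crest, limb and somite markers that passed the threshold were lower. Msx1, a homeobox gene of neural crest and limb, had 9.84 to 10.06 (median 10.01) in MommeD1 embryos and 10.10 to 10.35 (median 10.20) in Wildtype embryos on the log2 scale, without overlap, a fall of 0.24 on the log2 scale (SE 0.04, adjusted p = 0.0019). It was the 1 of 13 neural crest markers past the threshold (7.69%, against 12% of all autosomal genes), and 2 of the 13 had a positive difference. Of 9 limb and body wall markers, 2 fell (22.2%): the homeobox gene Prrx1 (-0.26 ± 0.07, adjusted p = 0.0181) and Fgf10 (-0.19 ± 0.06), a growth factor of limb outgrowth that lost its call with any of 9 arrays left out (adjusted p 0.0527 to 0.079). The difference for Prrx1 was -0.41 in females and -0.11 in males, and its call was lost without the 3 arrays high in yolk sac markers (adjusted p = 0.0543). Dimmer kept probes of Prrx1 differed by -0.18 and -0.09 and did not pass (adjusted p 0.0809 and 0.293 when every kept probe was tested). The skeletal actin gene Acta1, the 1 of 6 somite markers past the threshold (16.7%), differed by -0.27 ± 0.08 and lost its call with any of 9 arrays left out (adjusted p 0.0507 to 0.069). Of 13 erythroid markers, the transferrin receptor Tfrc (-0.24 ± 0.08) alone passed (7.69%) and lost its call with any of 13 arrays left out (adjusted p 0.0554 to 0.1). Trophoblast and decidual markers had 0 of 6 past the threshold. Differences in stage or tissue makeup between the genotypes were not tested.

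Of 24 Wnt pathway genes, 4 fell and 1 rose (20.8%, against 12% of all autosomal genes), with a median of -0.04 against -0.01 for all. The falls were in the Wnt receptor genes Fzd2 (-0.25 ± 0.06, adjusted p = 0.0162), Fzd10 (-0.22 ± 0.05, adjusted p = 0.00733) and Fzd7 (-0.17 ± 0.04) and in Sfrp1 (-0.16 ± 0.05), a secreted antagonist. The difference for Fzd2 was -0.44 in females and -0.07 in males, and differed between the sexes at an unadjusted p of 0.00133, so it was not common. Fzd7 and Sfrp1 were named after their values were seen, and Sfrp1 lost its call with any of 7 arrays left out (adjusted p 0.0501 to 0.0684). The receptor gene Fzd6 rose by 0.19 ± 0.05 (adjusted p = 0.0216), and without the 3 arrays high in yolk sac markers its difference was 0.15 (adjusted p = 0.123). Dimmer probes of Fzd10 differed by 0.01 ± 0.05 and 0.01 ± 0.06, so the fall of that gene rests on 1 of its probes. Hox genes had 1 of 20 past the threshold (5%) and a median of -0.03, and this was Hoxb7 (0.28 ± 0.08), which lost its call without either of 2 arrays (adjusted p 0.0513 and 0.0525).

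Metabolic and cell cycle lists were mixed. Of 11 cholesterol genes, the synthesis genes Msmo1 (0.25 ± 0.06) and Lss (0.20 ± 0.05) rose and the sterol carrier Stard4 (-0.26 ± 0.06) fell (27.3%, against 12% of all autosomal genes). Without the 3 arrays high in yolk sac markers, Msmo1 and Lss lost their calls (adjusted p = 0.0575 and 0.104). Of 14 genes of the integrated stress response, 3 rose and 1 fell (28.6%), with a median of 0.05. Phgdh, the entry enzyme of serine synthesis, rose by 0.21 ± 0.05 (adjusted p = 0.0183), and the calls for the asparagine synthetase gene Asns and the transcription factor genes Cebpb and Atf5 were lost with any of 5, 10 and 12 arrays left out, with adjusted p up to 0.0606, 0.0865 and 0.101. Of 28 replication and mitosis genes, the mitotic kinesin gene Kif11 (-0.17 ± 0.04), the kinase gene Plk1 (-0.16 ± 0.04) and the cyclin gene Ccne1 (-0.16 ± 0.04) fell. Kif11 and Plk1 lost their calls without the 3 arrays high in yolk sac markers (adjusted p = 0.0529 and 0.0725). Ccnd1 (0.13 ± 0.04) rose, a call lost with any of 10 arrays left out (adjusted p 0.0521 to 0.0825), so that 14.3% of this list were called, with a median of -0.02. Glycolysis and hypoxia genes had 0 of 19 past the threshold.

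**Figure D5:**
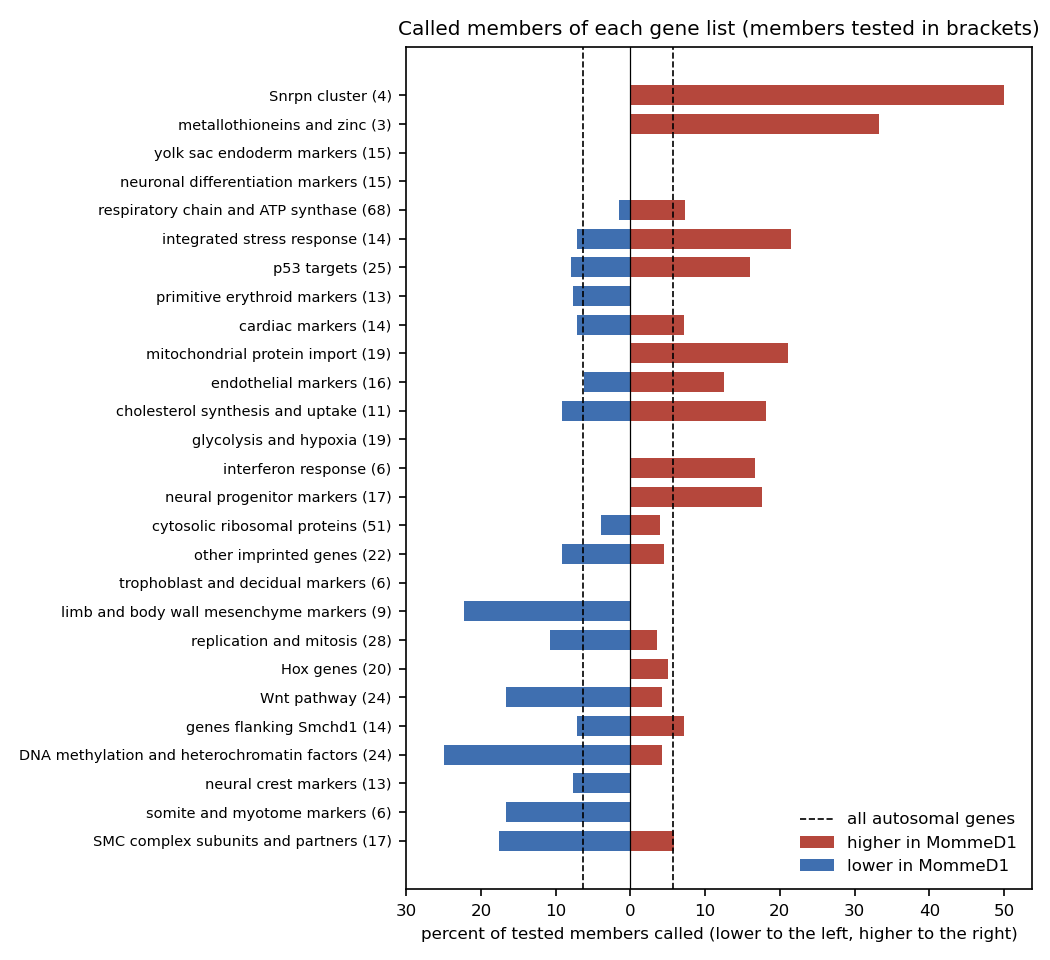
The percent of tested members of each gene list that were past the adjusted threshold, lower in MommeD1 embryos to the left and higher to the right, in order of the median difference; the dashed lines give the same for all autosomal genes (6.34% lower, 5.68% higher). The protocadherin list, with 1 tested gene, is left out, and several lists rest on a few members. The 2 called members of the Snrpn list are Mkrn3 and Ndn, which mark this comparison.

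Common genes were found on every autosome, from 3.27% of tested genes on chromosome 19 to 7.35% on chromosome 14. Chromosome 7 had 22 higher and 16 lower (7.16%), and its median difference was 0.01. Of 6737 neighbouring pairs in the order of tested genes, 5 had both members with a common rise, Ndn with Mkrn3 among them, 8 had both with a common fall, and 14 had one of each. Smchd1 and Ndc80 were 1 of the 8. With 2.59% of autosomal genes commonly higher and 3.02% commonly lower, some such pairs arise by chance. An excess of pairs over chance was not tested, so these counts do not show clustering.

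The promoter windows of genes with a common effect were also examined for CpGs. RefSeq windows were matched for 154 of the 175 genes that rose and 165 of the 204 that fell. The median number of CpGs was 21 in the windows of the first and 23 in those of the second, against 22 for all autosomal genes tested, with quartiles of 13 and 28 for the first, 16 and 32 for the second and 15 and 29 for all. Windows with 5 or fewer CpGs made up 7.1% of the first, 4.8% of the second and 5.7% of all. These are counts of letters and say nothing of methylation.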

How the data were processed

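Total RNA of 16 single embryos was measured on Illumina MouseRef-8 version 2.0 arrays. RNA with an integrity number above 8 was used, and the yolk sac of each embryo served for genotyping. The deposited values are log2 signals that the authors normalized between arrays, and they named beadarray and limma. Lowest and highest values were identical on all arrays, the pattern of quantile normalization. Background subtraction before it is not stated. A further deposited table of signal and detection p-values has 32 columns that are not tied to an embryo, and it was not used.

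Probes above 7 on at least 4 of 16 arrays were kept, with the probe of highest mean for each gene. Symbols came from the platform annotation (23978 of 25697 probes) and were updated, and chromosomes assigned, through RefSeq GRCm38.p6, which held 99.9% of the named probes. The genome build of the probes is not stated, so no probe positions are printed.

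The linear models used lmFit and eBayes of limma 3.58.1, under R 4.3.3. The pooled fit had genotype, sex and chip as terms (12 residual degrees of freedom), and a second fit had the 4 groups and chip (11 degrees of freedom) for effects by sex and their difference. P-values were adjusted by Benjamini-Hochberg over 6999 genes, with a threshold of 0.05. Errors beside log2 differences are standard errors, intervals are 95%. The number of arrays limits the precision. The labels number the arrays within a group, and the study gives separate embryos. The procedure was tested on simulated data.

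The comparison, the 28 gene lists and the tests were chosen with earlier results of these data known, so no list is independent evidence. Lists are described by their counts, beside the share called among all autosomal genes, and for most by their median, without a set test. Named are Smchd1, Mkrn3, Ndn and Pcdhb22, the 12 greatest common rises and falls, genes past the threshold in both the pooled effect and the sex difference, and up to 2 members per list and direction. Promoter windows were those of the first start listed for a gene. Alternatives covered the chip term, replicate numbers as a block, filters, probe choice, normalization, moderation, array weights, single chips and single arrays left out.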

Additional observations from a re-analysis of the deposited data

Results flagged for a closer look

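In 4 genes past the pooled threshold the genotype effect differed between the sexes by limma's test of the difference. The female minus male difference of the effects was 0.87 on the log2 scale for Cdkn1a, 0.68 for Ccng1, 0.51 for Phlda3 and 0.38 for 1700029P11Rik (adjusted p = 0.0457 for the last named). In each the effect was larger in females.

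Among 364 groups of 4 arrays, one for each named gene, genotype and sex, 15 held an array far from the other 3 by Dixon's ratio. Chance flags about 1 in 20 groups. In MommeD1 males, array 1 stood alone for Mef2c (9.31, the next at 8.73) and Fam117a (8.85) on the high side and for Fzd10 (9.99) and Dnajc19 (12.09) on the low side, and array 3 for Ndufa12 (11.91, high). MommeD1 male 1 is also 1 of the 3 arrays highest in yolk sac endoderm markers, and the part of these in the values was not tested. In MommeD1 females, array 1 stood alone for Prtg (8.42, low) and Prrx1 (7.93, high), array 3 for Arhgap32 (8.17, high) and array 4 for Rpl24 (13.09, low).

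In Wildtype males, array 1 stood alone for Prss35 (8.87, high) and Ring1 (8.56, low), and array 4 for Smc5 (9.08, low) and Fgf10 (8.64, high). In Wildtype females, array 3 stood alone for Rps27l (13.37, low) and array 1 for Ndufa12 (11.68, high). All levels are log2 signals.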

How the results depend on the processing

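The number of autosomal genes past the threshold was 812, and it was 425 with no filter on level, 10 on chip 1 alone and 61 on chip 2 alone, where each genotype and sex has 2 arrays. With single arrays left out it ran from 519, without Wildtype female 3, to 961, without MommeD1 male 1. The number of genes with a common effect, 379, was 9 on chip 1 alone and 56 on chip 2 alone, and ran from 268 to 459 with single arrays left out. The other alternatives kept both counts within 1.5 times. Without the 3 arrays highest in yolk sac endoderm markers, an alternative chosen after seeing the data, the counts were 590 and 355. Centring each array on its autosomal median gave 800 genes, 52.1% of them higher, against 47.3%.

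Of 89 genes named in the text and past the threshold, 7 stayed past it in every alternative that tested them (Smchd1, Mkrn3, Ndn, Pcdhb22, 4930555G01Rik, Csf2ra and Timm8b), and 56 in every one but a single chip. Pcdhb22 and Csf2ra passed the filter on level only through MommeD1 embryos. No called gene changed direction, whereas Snrpn, which was not called, stood at -0.03648 on chip 1 alone. Averaging all kept probes ended the calls for Ezh2 (adjusted p = 0.554) and Fzd10 (0.305). Leaving out the 3 arrays high in yolk sac markers ended those for Ezh2, Gm5796, Msmo1, Lss, Kif11, Plk1, Fzd6 and Prrx1, among others (adjusted p 0.0529 to 0.123 for these 8). The cause was not tested.

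The labels number the arrays of each group 1 to 4. Deviations from group means correlated between same-numbered arrays of the genotypes at -0.07 to 0.40, and 3 of the 8 pairs correlated best with their own number. The chip effect was not removed from these deviations, and same-numbered arrays share a chip. These correlations therefore cannot decide whether the numbers pair embryos. With the replicate block the counts were 743 and 366.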
